A study of Mus musculus with 14 samples.

Results

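The genes described here set the balance of inorganic phosphate and pyrophosphate around mineralizing cells. They are 10 of the 39179 genes measured over Ocy454 differentiation and of the 35886 measured in sorted cells, and were taken by name: *Phospho1*, *Alpl*, *Enpp1*, *Ank*, *Slc20a1*, *Slc20a2*, *Xpr1*, *Phex*, *Fgf23* and *Fam20c*. Ocy454 is a mouse line used as a model of osteocytes. A heat-labile viral T antigen keeps it growing in the cool, and cultures are warmed to mature. All groups share this line and the T antigen, and no wild-type tissue stands beside them. RNA was sequenced from unsorted cells at days 1, 7, 10 and 14 of differentiation (2 libraries a day, 8 in all), and from cells sorted on day 17 into the 10% with the highest and the 10% with the lowest surface CD61, the integrin beta-3 protein encoded by *Itgb3* (3 libraries each). The study used the time course to follow maturation and the sort to learn what cells with much surface CD61 express.

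Bone mineral is calcium phosphate, and pyrophosphate blocks the growth of its crystals. Matrix vesicles that bud from bone cells make phosphate inside through PHOSPHO1 and outside through tissue-nonspecific alkaline phosphatase (*Alpl*), which also splits pyrophosphate, while ENPP1 makes pyrophosphate from extracellular ATP and ANK lets it or its source leave the cell. SLC20A1 and SLC20A2 carry phosphate into cells and XPR1 carries it out, while osteocytes use PHEX, FAM20C and the hormone FGF23 to act on phosphate in the whole body.

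Between 27518605 and 34311238 reads on genes stood behind each differentiation library, and between 18815602 and 19220064 estimated counts behind each sorted library. *Itgb3* was checked first in the sort: it went from 5.65 ± 0.408 in CD61 low to 111 ± 16.4 TMM-normalized CPM in CD61 high libraries (SD, n = 3), so the libraries follow their labels. Of 10 markers of osteoblasts and osteocytes, 5 had a mean above 1 CPM on day 1 and 9 on day 14, and *Mepe* stayed at or below 0.472 CPM in every library. Their sum, which is mostly *Col1a1*, was lower at the later days: 35032 to 35078 CPM on day 1, 28501 to 29159 on day 7, 21958 to 23689 on day 10 and 23874 to 29076 on day 14. It was 16211 to 19774 in CD61 low and 45128 to 47733 in CD61 high libraries. Among markers of other cell types, *Vwf* made up nearly all of the endothelial list, whose 5 genes summed to 0.69 to 1.33 CPM on day 1, 4.68 to 6.36 on day 7, 124 to 132 on day 10, 18.0 to 19.3 on day 14, 14.8 to 20.9 in CD61 low and 72.5 to 91.3 in CD61 high libraries, while *Pecam1* and *Cdh5* stayed at or below 0.287 CPM. The 6 chondrocyte genes, mainly *Sox9*, *Acan* and *Ihh*, summed to 80.0 to 81.5 CPM on day 1, 94.5 to 97.3 on day 7, 83.2 to 84.5 on day 10, 126 to 140 on day 14, 48.1 to 61.6 in CD61 low and 135 to 157 in CD61 high libraries, while *Matn1* stayed at or below 0.173 CPM. The macrophage and osteoclast genes (8 in the sort, 7 of them over the days) summed to 26.2 to 90.2 CPM, with *Ptprc* at or below 0.0627. Over the days this was mostly *Ctsk*. In the sort *Cd68* was also a large part, at a mean of 14.2 beside 18.6 for *Ctsk* in CD61 low and 8.07 beside 21.2 in CD61 high libraries. The other sums were those of the 5 adipocyte genes, at up to 0.76 CPM, and the 5 muscle genes, at up to 5.29 CPM. The part of these genes in the results that follow was not tested.

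Genes were called higher or lower at an adjusted p below 0.01 together with a Log2FC (the log2 fold change) above 1 or below -1, in limma for the days and in edgeR's quasi-likelihood test for the sort, both with Benjamini-Hochberg adjustment over all genes tested. Below, "rose" and "fell" are kept for such calls, and a smaller difference at an adjusted p below 0.01 is given as a value. *Fgf23* was too low to test, which left 9 of the 10 genes. Against day 1, 4 of the 9 rose on day 7 and 0 fell, where 4.49% of 12725 genes rose and 4.62% fell. On day 10, 6 rose and 0 fell, beside 6.06% and 4.42% of all genes, and on day 14, 3 rose and 0 fell, beside 7.51% and 5.9%. These contrasts share the day 1 libraries and are not independent. In CD61 high against CD61 low cells 4 of the 9 were called higher and 0 lower, where 4.84% and 4.37% of 12077 genes were. Scaled by library size alone, *Ank* was not called and *Slc20a1* was called lower in the sort. That scaling gave 314 genes higher and 981 lower in place of 585 and 528. In the contrast of day 14 with day 10, 1 of the 9 rose and 0 fell, beside 2.09% and 0.872% of all genes. An adjusted p below 0.01 alone was common in these data. It was passed by 6 of the 9 genes upward and 3 downward on day 7 (24.5% and 32% of all genes), 6 and 1 on day 10 (33.1% and 30.3%) and 6 and 2 on day 14 (32.6% and 36%). It was also passed by 3 genes upward and 3 downward between days 7 and 10 (29.8% and 18.9%), 2 and 5 between days 10 and 14 (22.9% and 30%), and 6 and 1 in the sort (19.4% and 16%). The larger side of these shares over all genes depended on scaling in every comparison. Between days 7 and 10, 3798 genes passed upward and 2399 downward, but 2943 and 3158 after TMM scaling. Between days 10 and 14, these were 2909 and 3812, but 3508 and 3114. In the sort, 2342 and 1933 with TMM became 1120 and 4824 by library size alone. The median Log2FC of the 9 genes was 0.68, 1.47 and 0.57 at days 7, 10 and 14 and 0.91 in the sort, beside -0.05, 0.02, -0.03 and 0.00 over all genes tested. *Phospho1*, *Alpl* and *Phex* rose at all 3 later days, *Fam20c* at days 7 and 10, and *Enpp1* and *Ank* on day 10.

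**Figure D1:**
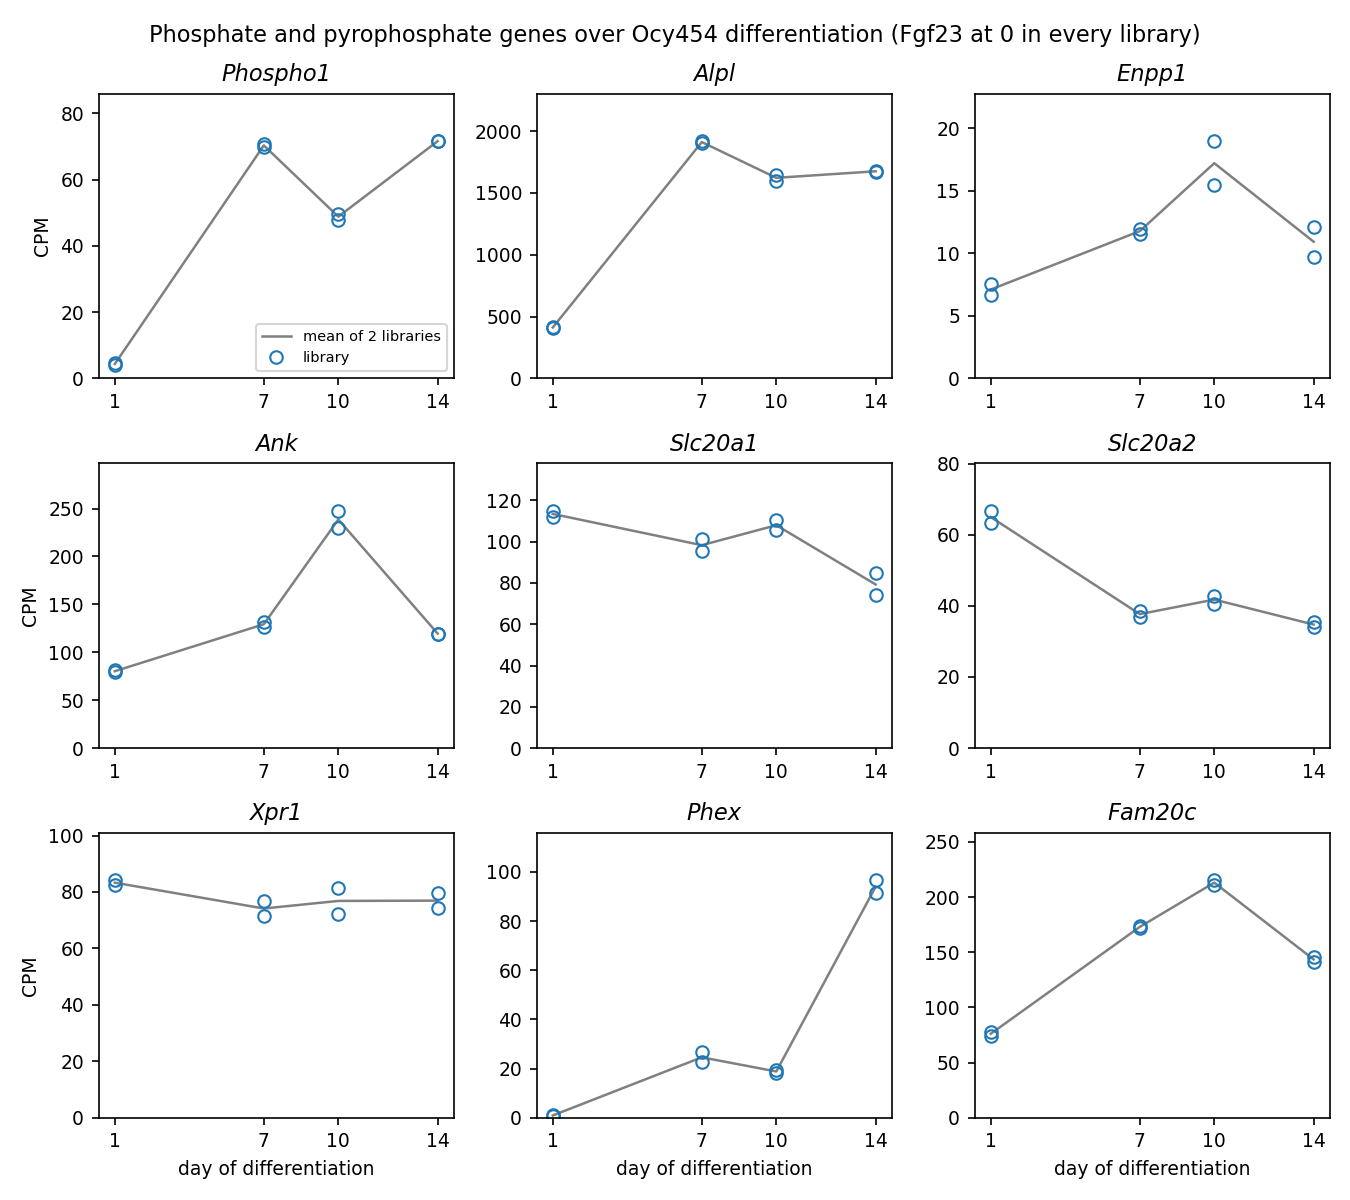
CPM of 9 genes (vertical axes, each from 0 on its own scale) by day of differentiation (horizontal axes), with 1 open circle per library and a line through the means of 2 libraries. *Enpp1*, *Ank* and *Fam20c* were highest on day 10, while *Phospho1*, *Alpl* and *Phex* lay lower on day 10 than on day 7.

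**Figure D2:**
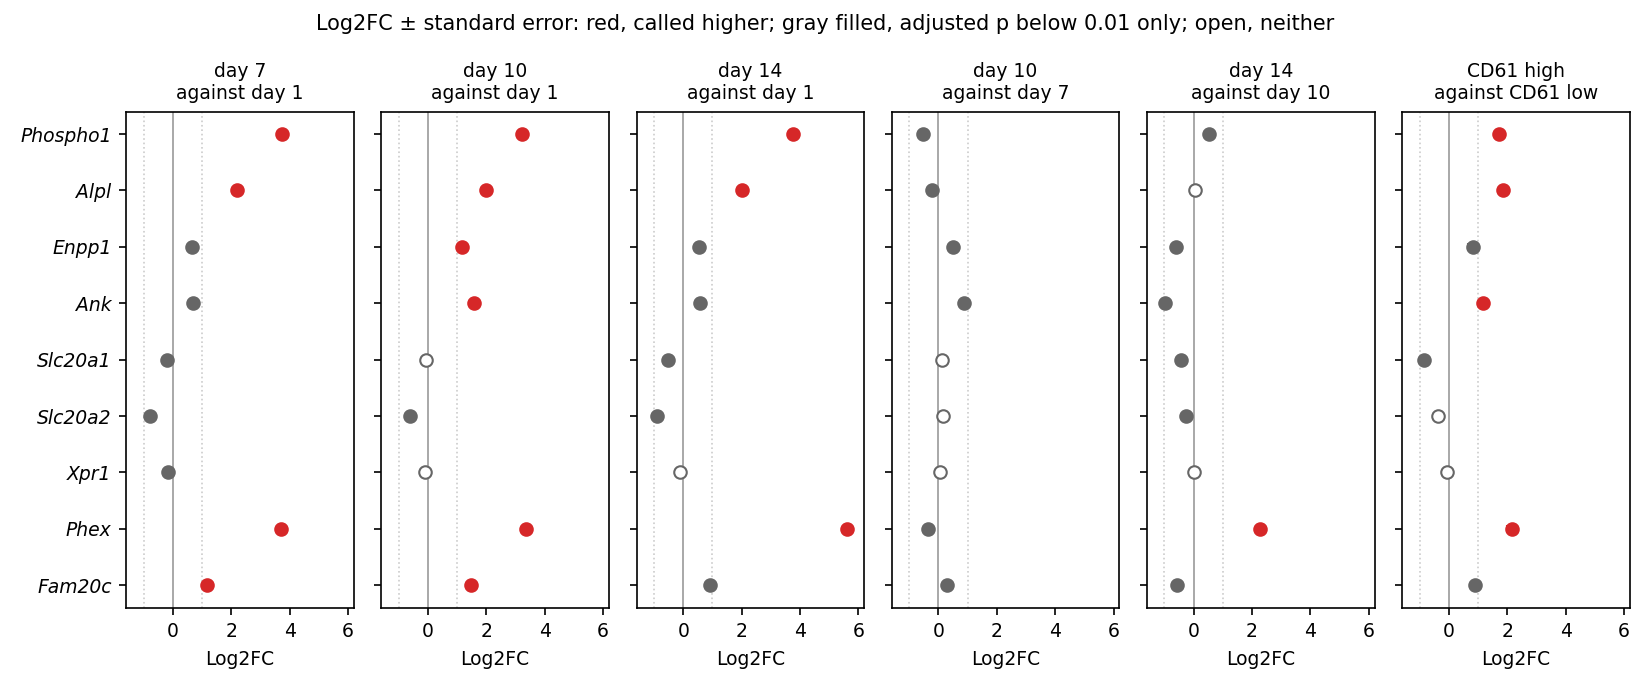
Log2FC (points) with its standard error (bars, mostly smaller than the points) for 9 genes in the 6 comparisons. Red points were called higher, gray filled points passed an adjusted p below 0.01 alone, open points passed neither, and dotted lines mark a Log2FC of -1 and 1. *Phex* reached the largest value, 5.60 on day 14 against day 1.

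*Phospho1* encodes the phosphatase that frees phosphate from phosphocholine and phosphoethanolamine inside matrix vesicles. It lies on chromosome 11 (95715264 to 95722973, plus strand, GRCm39). Its 2 libraries stood at 4.72 and 3.95 CPM on day 1, 70.8 and 69.9 on day 7, 49.7 and 47.9 on day 10, and 71.7 and 71.6 on day 14. All 6 later libraries lay above both day 1 libraries, and both day 10 libraries lay below those of days 7 and 14. Averages of the pairs were 4.34 ± 0.545, 70.3 ± 0.643, 48.8 ± 1.26 and 71.6 ± 0.0819 CPM (SD, n = 2), which is a 16.2-fold rise by day 7. On the log2(CPM + 1) scale the Log2FC against day 1 was 3.74 on day 7 and 3.77 on day 14 (standard error 0.07 each, limma adjusted p = 1.1e-25 and 6.3e-26). Day 10 stood between, at a Log2FC of -0.52 against day 7 (adjusted p = 2.0e-07 in limma) and day 14 at 0.54 against day 10 (adjusted p = 7.4e-08 in limma), both short of the Log2FC threshold.

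In sorted cells *Phospho1* had 482, 375 and 453 TMM-normalized CPM in CD61 low and 1328, 1547 and 1458 in CD61 high libraries. The groups did not overlap. The mean went from 437 ± 55.1 to 1444 ± 110.2 (SD, n = 3), 3.31-fold, at a Log2FC of 1.73 (standard error 0.10, edgeR adjusted p = 7.5e-07). The level differed between the experiments in a way no other of the genes did: without TMM scaling, the sorted means of *Phospho1* were 6.76 (CD61 low) and 18.2 (CD61 high) times its mean CPM on day 14, while for the other 8 genes these ratios lay between 0.124 and 1.74. The tables were made with different counting, the exons of *Phospho1* share 1825 of 6053 bases (30.2%) with *Zfp652* on the same strand and 1715 (28.3%) with *Abi3* on the opposite strand, and the differentiation table gives the gene a length of 1450 bases. How the authors' counter treated reads shared by genes is not given in the sources used here, so the level of *Phospho1* is uncertain in the differentiation table, and what made the experiments differ was not tested. In each sorted library 2 transcripts from neighbouring starts carried nearly all of the gene's TPM (a level per length, scaled to the same total in every library): ENSMUST00000054173.4 took 54.3 to 57.6% and ENSMUST00000150134.2 took 42.4 to 45.6%, and these shares overlapped between CD61 low and CD61 high libraries.

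*Alpl* encodes the ectoenzyme that frees phosphate from phosphate esters and splits pyrophosphate, and loss of its activity causes hypophosphatasia. The gene lies on chromosome 4 (137469039 to 137524102, minus strand, GRCm39) and has separate upstream and downstream starts, so their sequences are shown with that of *Phex*, the gene with the largest rise. Each window holds the 250 bases before a start in RefSeq's promoter table (GRCm38.p6), which has 9 of the 10 genes, and each matched GRCm39 once on its chromosome, at the positions given. Capitals mark the GC box, spelled GGGCGG, on either strand. They also mark the RUNX site letters, spelled TGTGGT. Lastly they mark the TATA box, spelled TATAAA, again on either strand. Each window is written 5′ to 3′ along the gene. The upstream *Alpl* window at chr4:137523696-137523945 (minus strand), the downstream one at chr4:137493787-137494036 (minus strand) and the *Phex* window at chrX:156198283-156198532 (minus strand) read:
Alpl upstream start: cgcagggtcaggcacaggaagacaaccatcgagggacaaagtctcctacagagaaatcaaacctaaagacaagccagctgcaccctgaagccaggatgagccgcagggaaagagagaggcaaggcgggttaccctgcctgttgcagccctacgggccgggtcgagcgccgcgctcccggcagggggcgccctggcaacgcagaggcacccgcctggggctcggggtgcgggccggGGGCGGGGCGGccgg
Alpl downstream start: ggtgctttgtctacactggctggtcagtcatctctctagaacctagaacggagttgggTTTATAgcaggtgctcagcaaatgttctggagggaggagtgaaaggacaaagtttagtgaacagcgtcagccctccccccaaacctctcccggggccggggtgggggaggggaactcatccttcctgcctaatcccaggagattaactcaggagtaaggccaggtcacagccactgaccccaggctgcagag
Phex start: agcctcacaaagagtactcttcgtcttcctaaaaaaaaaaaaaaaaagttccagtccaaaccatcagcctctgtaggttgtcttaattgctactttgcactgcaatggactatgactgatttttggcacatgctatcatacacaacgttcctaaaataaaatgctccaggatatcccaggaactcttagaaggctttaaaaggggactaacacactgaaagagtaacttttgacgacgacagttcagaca
The upstream *Alpl* window is 68.4% G and C and holds 2 GC boxes that overlap by 1 base, both within its last 15 bases, which GENCODE M39 places in the first exon of *Alpl*, the downstream one is 56.0% G and C and holds 1 TATAAA on the reverse strand, 192 bases before the start, and the *Phex* window is 39.2% G and C and holds none of the motifs. GC boxes stood in 8 of the 11 windows of these genes and in 32.7% of all 32851 windows, RUNX letters in 2 (*Enpp1* and 1 window of *Slc20a1*) against 14%, TATAAA in 1 against 12.4%, the hypoxia response core ACGTG in 4 against 16.6% and the homeodomain letters TAATTA in 0 against 4.84%, each counted on both strands. The windows of *Phospho1*, *Fam20c* and 1 of *Slc20a1* lay wholly inside exons of GENCODE M39 and that of *Ank* for 205 of its 250 bases. The *Phex* window shares 26 bases with an exon of another *Phex* transcript, ENSMUST00000138396.3. The motif counts therefore do not describe sequence upstream of the starts alone.

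In sorted cells nearly all *Alpl* RNA was assigned to the upstream start. In the 6 sorted libraries ENSMUST00000030551.11, which has 12 exons and begins at 137523710 on chromosome 4, took 99.4 to 99.7% of the gene's TPM, and the transcript that begins at the downstream start, ENSMUST00000139951, was listed at 0 in all 6. As annotated, ENSMUST00000139951 has 6 exons and 916 bases and stops at 137479863, while ENSMUST00000030551.11 runs on to 137469044. Reads from the exons beyond that stop could not be assigned to ENSMUST00000139951, so the use of the downstream start is uncertain. Over the time course *Alpl* stood at 411.5 and 412 CPM on day 1, 1921 and 1903 on day 7, 1599.7 and 1646 on day 10, and 1678 and 1673 on day 14. Every later library lay above day 1, and day 7 lay above days 10 and 14. Averages of the pairs were 412 ± 0.462, 1912 ± 12.6, 1623 ± 32.5 and 1676 ± 3.60 CPM (SD, n = 2), so the largest fold was 4.64 on day 7, at a Log2FC of 2.21 (standard error 0.04 and limma adjusted p = 3.9e-26), and the Log2FC on day 14 was 2.02 (adjusted p = 1.8e-25 in limma). Day 10 lay below day 7 by a Log2FC of -0.24 (adjusted p = 4.8e-06 in limma), and days 14 and 10 differed by 0.05 (adjusted p = 0.28).

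In the sort *Alpl* had 983, 768 and 917 TMM-normalized CPM in CD61 low and 3105, 3350.2 and 3240.5 in CD61 high libraries. The lowest CD61 high library stood well above the highest CD61 low library. The mean rose 3.63-fold, from 889 ± 110.04 to 3232 ± 123 (SD, n = 3), at a Log2FC of 1.86 (standard error 0.10, edgeR adjusted p = 3.8e-07).

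*Enpp1* encodes the ectoenzyme that makes pyrophosphate from ATP. It lies on chromosome 10 (24513812 to 24588057, minus strand, GRCm39) and was thinly covered, with 213 to 589 reads per differentiation library and 96.0 to 189 estimated counts per sorted library. It stood at 7.53 and 6.68 CPM on day 1, 12.0 and 11.6 on day 7, 15.4 and 19.0 on day 10, and 12.1 and 9.74 on day 14. Both day 10 libraries lay above all the others, and the libraries of days 7 and 14 overlapped. The mean rose 2.42-fold from day 1 (7.10 ± 0.599 CPM) to day 10 (17.2 ± 2.51 CPM, SD, n = 2), at a Log2FC of 1.16 (standard error 0.11 and limma adjusted p = 3.0e-10). Days 7 and 14 were at a Log2FC of 0.66 and 0.55 against day 1, past an adjusted p of 0.01 alone, and with no filter on low values the adjusted p in limma became 0.045 and 0.062. In the sort it had 6.27, 4.50 and 7.18 TMM-normalized CPM in CD61 low and 10.7, 10.9 and 10.2 in CD61 high libraries, which do not overlap. The Log2FC was 0.83 (standard error 0.17, edgeR adjusted p = 0.0026), short of the threshold, and the adjusted p was 0.020 with an offset for transcript length and 0.018 with scaling by library size alone (Log2FC 0.53). In TPM the groups of *Enpp1* overlapped, at 1.89 to 3.60 in CD61 low and 3.54 to 4.89 in CD61 high libraries.

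*Ank*, called Ankh in newer annotation, encodes the multipass membrane protein whose loss in mice lowers extracellular pyrophosphate and lets joints mineralize. It lies on chromosome 15 (27466558 to 27598709, plus strand, GRCm39). The libraries held 79.5 and 81.0 CPM on day 1, 127 and 132 on day 7, 229 and 248 on day 10, and 119.6 and 119.6 on day 14. Day 10 stood apart, since both of its libraries exceeded every other library. The mean rose 2.97-fold from day 1 (80.3 ± 1.10 CPM) to day 10 (239 ± 13.0 CPM, SD, n = 2), at a Log2FC of 1.56 (standard error 0.04 and limma adjusted p = 1.6e-21). From day 10 to day 14 *Ank* went down to 119.6 ± 0.00199 CPM, which is a Log2FC of -0.99 (limma adjusted p = 1.6e-16, standard error 0.04), just inside the threshold of -1, and -1.05 without day 10 replicate 1. Days 7 and 14 were at 0.68 and 0.57 against day 1 (adjusted p = 1.3e-13 and 3.3e-12 in limma), also short of a call.

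The CD61 low libraries had 93.2, 85.9 and 90.2 TMM-normalized CPM of *Ank* and the CD61 high libraries 213, 198 and 197. The groups were far apart. The mean rose 2.26-fold, from 89.8 ± 3.68 to 203 ± 8.94 (SD, n = 3), at a Log2FC of 1.18 (standard error 0.07, edgeR adjusted p = 7.8e-07). Scaled by library size alone, which shifted the median Log2FC of all genes to -0.30 and gave 314 genes higher and 981 lower in place of 585 and 528, *Ank* was at 0.88 and no longer called.

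The ratio of *Alpl* to each supplier of pyrophosphate was taken within each library. It is a ratio of CPM with no correction for length, so it compares groups and not the genes, and it was given no test. *Alpl* to *Ank* was 5.18 and 5.09 on day 1, 15.2 and 14.4 on day 7, 6.97 and 6.64 on day 10, and 14.04 and 13.99 on day 14. The libraries of day 10 lay nearer to day 1 than to days 7 and 14. *Alpl* to *Enpp1* followed the same order of low and high days, with means of 58.2 ± 4.97, 162 ± 2.70, 95.2 ± 12.0 and 155 ± 23.6 (SD, n = 2). In sorted cells *Alpl* to *Enpp1* went from 128 to 171 in CD61 low libraries up to 291 to 317 in CD61 high libraries, and *Alpl* to *Ank* from 8.94 to 10.5 up to 14.6 to 16.9. *Alpl* stood higher relative to each of these genes in every CD61 high library than in any CD61 low library.

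**Figure D3:**
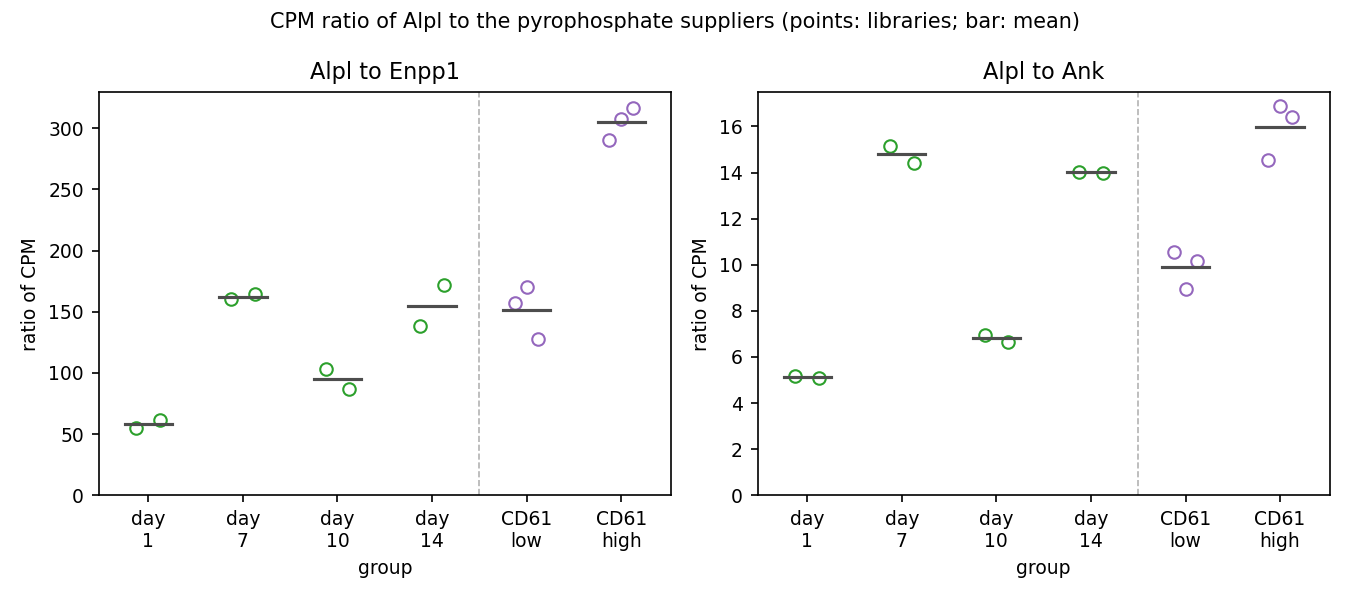
Ratio of the CPM of *Alpl* to that of *Enpp1* (left) and of *Ank* (right) in each library (vertical axes, from 0), with 1 circle per library and a bar at the group mean. The dashed line parts the 4 days from the sort. Day 10 lies between day 1 and the other days in both panels, at means of 95.2 and 6.81.

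None of the 3 phosphate carriers was called in any comparison. *Slc20a1* (PiT-1), a sodium-dependent phosphate importer also known as a retrovirus receptor, lies on chromosome 2 (129040256 to 129053536, plus strand, GRCm39). It had 115 and 112 CPM on day 1, 101 and 95.3 on day 7, 110.4 and 106 on day 10, and 84.6 and 73.9 on day 14. Both day 14 libraries lay below all the others. The mean went from 113 ± 2.21 CPM on day 1 to 79.3 ± 7.54 CPM on day 14 (SD, n = 2), which is a Log2FC of -0.51 (standard error 0.05 and limma adjusted p = 1.2e-09). The CD61 low libraries had 65.0, 76.5 and 79.2 TMM-normalized CPM and the CD61 high libraries 44.9, 41.4 and 37.5, with no overlap. The mean was 1.78-fold lower in CD61 high libraries, at a Log2FC of -0.83 (standard error 0.10, edgeR adjusted p = 6.7e-05). Scaled by library size alone it was -1.13 and called lower. Antisense noncoding genes share up to 830 of its 6191 exon bases (13.4%), and whether the reads were counted by strand is not given in the sources used here.

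*Slc20a2* (PiT-2), the second importer of the family, lies on chromosome 8 (22966111 to 23059686, plus strand, GRCm39). It stood at 63.2 and 66.7 CPM on day 1, 36.9 and 38.5 on day 7, 42.9 and 40.6 on day 10, and 35.5 and 34.0 on day 14. Every later library lay below both day 1 libraries. The mean on day 14 was 1.87-fold lower than on day 1 (34.7 ± 1.03 against 65.0 ± 2.53 CPM, SD, n = 2), at a Log2FC of -0.88 (standard error 0.06 and limma adjusted p = 1.2e-13), short of the threshold. In the sort the mean was 32.4 ± 2.92 in CD61 low and 25.0 ± 3.63 TMM-normalized CPM in CD61 high libraries (SD, n = 3). The Log2FC of -0.38 (standard error 0.12) did not pass in edgeR (adjusted p = 0.023), although the 3 CD61 high libraries (20.9 to 27.8) lay below the 3 CD61 low libraries (29.6 to 35.4). Scaled by library size alone, *Slc20a2* was at -0.68 (edgeR adjusted p = 0.00061). The CPM ratio of *Slc20a1* to *Slc20a2* was 1.68 to 1.82 on day 1 and 2.17 to 2.75 at the later days, and 2.20 to 2.37 in CD61 low and 1.49 to 1.80 in CD61 high libraries.

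*Xpr1*, the phosphate exporter, lies on chromosome 1 (155151407 to 155293181, minus strand, GRCm39). It was the steadiest of the 9 genes over the days, with 71.4 to 84.1 CPM in the 8 libraries, and the libraries of days 7, 10 and 14 overlapped. It was at a Log2FC of -0.17 on day 7 against day 1 (standard error 0.05 and limma adjusted p = 0.0079), which passed 0.01 in the fit as planned. With all libraries kept it did not pass after TMM scaling (limma adjusted p = 0.048) or with no filter on low values (limma adjusted p = 0.30). Nor did it pass in edgeR on the recovered reads (edgeR adjusted p = 0.049). The Log2FC was -0.18 without day 1 replicate 1, -0.15 without day 1 replicate 2 and -0.11 without day 7 replicate 2. Each of these fits leaves 1 library in a group, and none is read as passing. *Xpr1* did not pass on day 10 (Log2FC -0.12, adjusted p = 0.050) or day 14 (-0.11, adjusted p = 0.055, both limma). In the sort it had 99.7, 94.8 and 111 TMM-normalized CPM in CD61 low and 108, 85.6 and 96.5 in CD61 high libraries, which overlap, at a Log2FC of -0.07 (standard error 0.10, edgeR adjusted p = 0.55). Scaled by library size alone, *Xpr1* was at -0.37 (edgeR adjusted p = 0.0044), and in TPM the groups did not overlap, at 24.8 to 30.5 in CD61 low and 16.9 to 24.4 in CD61 high libraries.

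*Phex* encodes a membrane endopeptidase of osteoblasts and osteocytes, and its loss causes X-linked hypophosphatemia. It lies on the X chromosome (155945071 to 156198308, minus strand, GRCm39). It stood at 0.767 and 1.16 CPM on day 1 (26 and 37 reads), 22.6 and 26.6 on day 7, 18.1 and 19.6 on day 10, and 96.5 and 91.4 on day 14 (3311 and 2514 reads). It was the only one of the 9 genes called between days 10 and 14, at 4.98-fold at a Log2FC of 2.26 (standard error 0.09 and limma adjusted p = 1.1e-16). Between days 7 and 10, where 0 of the 9 genes were called and 1.43% of all genes were called higher and 0.786% lower (182 and 100 genes, or 145 and 127 after TMM scaling), *Phex* was at -0.36 (adjusted p = 0.0017 in limma). That lower level on day 10 did not pass without day 7 replicate 2 (adjusted p = 0.071) or without day 10 replicate 1 (adjusted p = 0.027).

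In the sort *Phex* had 10.4, 9.43 and 11.6 TMM-normalized CPM in CD61 low and 58.7, 37.9 and 44.8 in CD61 high libraries. The groups did not overlap, and CD61 high replicate 1 was the highest. The mean rose 4.49-fold, from 10.5 ± 1.10 to 47.2 ± 10.6 (SD, n = 3), at a Log2FC of 2.17 (standard error 0.16, edgeR adjusted p = 2.7e-06), the largest of the 9 genes. The unscaled CPM of sorted *Phex* was 0.452 (CD61 high) and 0.124 (CD61 low) times that of unsorted cells on day 14. The day, the sorting and the counting all differed between these experiments, and what made these ratios was not tested. The full-length transcript of 22 exons, ENSMUST00000079945.11, took 32.4 to 79.9% of its TPM and a single-exon transcript of 3588 bases at the 3′ end, ENSMUST00000135713.8, took 20.1 to 61.4%. These shares overlapped between the sorted groups. A further transcript, ENSMUST00000138396.3, took 32.4% in CD61 low replicate 3, where the full-length share was lowest, and 0 in every other library. By estimated counts the full-length transcript held 51.6 to 88.3%, so the split between transcripts is uncertain. In such bulk libraries, fewer cells that express a gene and less of its RNA per cell cannot be told apart.

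*Fam20c* encodes the Golgi kinase that phosphorylates secreted proteins, among them FGF23 and the matrix proteins that bind mineral. It lies on chromosome 5 (138740173 to 138795832, plus strand, GRCm39). It had 78.1 and 74.2 CPM on day 1, 174 and 172 on day 7, 211 and 215 on day 10, and 141 and 146 on day 14. No days overlapped, and the order was day 10, 7, 14 and 1. The mean rose 2.80-fold from 76.1 ± 2.78 on day 1 to 213 ± 2.82 CPM on day 10 (SD, n = 2), at a Log2FC of 1.47 (standard error 0.04 and limma adjusted p = 1.6e-21), and 2.27-fold on day 7. Day 14 was at 0.91 against day 1 and at -0.57 against day 10 (adjusted p = 5.1e-17 and 3.8e-12 in limma), both short of a call. In the sort it went from 62.7, 63.4 and 64.1 to 123, 117 and 118 TMM-normalized CPM. The spread within each group was small beside the gap, at a Log2FC of 0.91 (standard error 0.07, edgeR adjusted p = 2.3e-06), again short of the threshold.

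*Fgf23*, the phosphate-lowering hormone of bone, lies on chromosome 6 (127049865 to 127059255, plus strand, GRCm39). It had 0 reads in all 8 differentiation libraries, 250823570 reads together, which allows a level of up to 0.012 CPM by a limit of 3 reads over all of them. In the sort a single estimated count fell in CD61 high replicate 2, out of 113550337 in the 6 libraries, where 3 counts would be 0.026 CPM. These limits cover counting error only. Its expression was not detectable at this depth in either experiment.

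**Figure D4:**
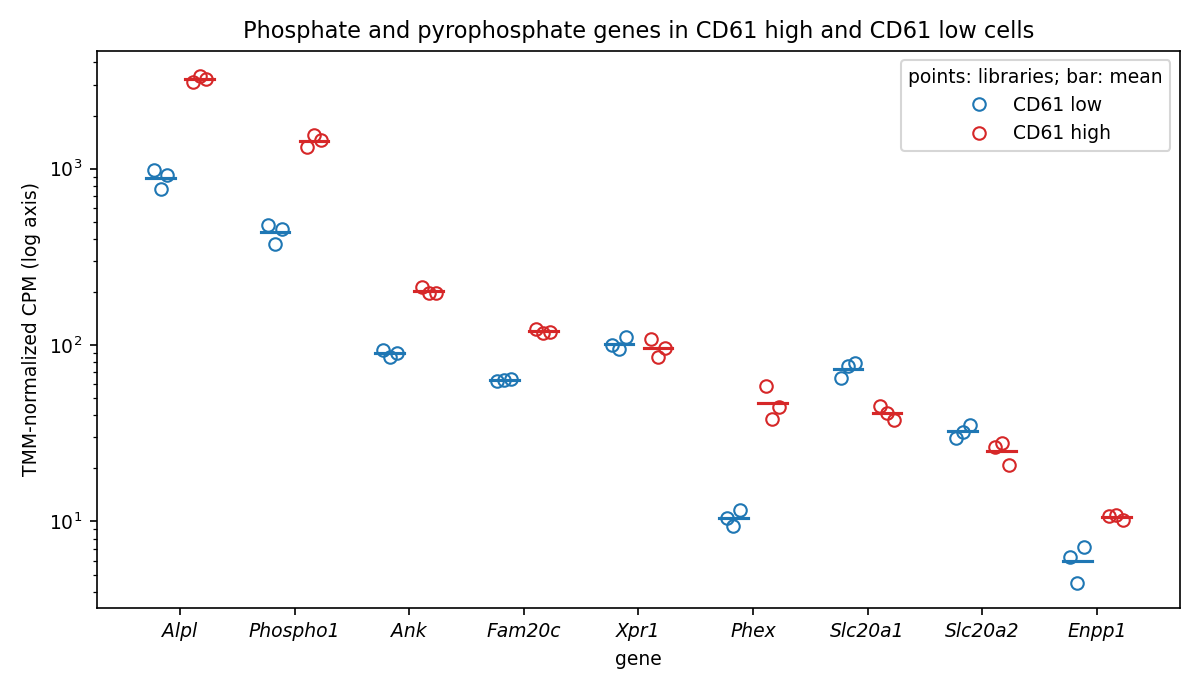
TMM-normalized CPM (vertical log axis) of 9 genes in CD61 low (blue) and CD61 high (red) libraries, with 1 circle per library and a bar at the mean of 3. *Alpl* and *Phospho1* lie highest in both groups, and the groups of *Xpr1* overlap.

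Per length, *Alpl* was the most abundant of the 10 genes at every day, with 103 ± 0.115 CPM per kilobase on day 1 and 417 ± 0.897 on day 14 (SD, n = 2). Its place above *Phospho1* at the later days rests on the uncertain *Phospho1* level described above. *Enpp1* was the least abundant of the detected genes from day 7 on, at 1.15 ± 0.0267, 1.69 ± 0.246 and 1.07 ± 0.165 CPM per kilobase. *Phospho1*, whose level in this table is uncertain as described, went from rank 7 on day 1 (2.99 CPM per kilobase) to rank 2 at days 7 and 14 (48.5 and 49.4), and *Phex* from rank 9 (0.154) to rank 6 on day 14 (15.0). On day 10 *Ank* (66.4) and *Fam20c* (39.8) stood above *Phospho1* (33.7 CPM per kilobase). The value of *Ank* uses the deposited length of 3596 bases. Its main transcript in sorted cells has 7417 bases, so the place of *Ank* in this order is uncertain. In CD61 high cells, in TPM, *Alpl* (2041 to 2070, 3 libraries) and *Phospho1* (1687 to 1798) led, followed by *Ank* (97.9 to 111) and *Fam20c* (49.8 to 55.1), and *Enpp1* was again last of the 9 (3.54 to 4.89).

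Related genes were counted in 5 lists of 60 genes, none among the 10. Together 46 were tested over the days, and 10, 12 and 15 were called higher and 2, 2 and 7 lower at days 7, 10 and 14 against day 1, against the shares of all genes given above (7.51% and 5.9% on day 14). In the sort 45 were tested, and 14 were called higher and 1 lower, beside 4.84% and 4.37% of all genes. Their median Log2FC was 0.02 on day 14 and 0.41 in the sort.

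Of 9 genes for phosphate release in matrix vesicles, 3 rose and 1 fell on day 14 (median Log2FC 0.01), and 3 rose in the sort (median 0.38). *Smpd3*, a neutral sphingomyelinase that yields phosphocholine, the substrate of PHOSPHO1, rose from 36.4 ± 0.976 to 478 ± 1.61 CPM on day 14 (SD, n = 2), which is a Log2FC of 3.68. Its level was higher in between, at 1079.6 ± 10.6 CPM on day 7 and 871 ± 54.6 on day 10, and day 14 was at -0.86 against day 10 (limma adjusted p = 7.0e-16). *Enpp6*, a choline phosphodiesterase that also yields phosphocholine, rose from 2.75 ± 0.119 to 17.8 ± 2.26 CPM and by a Log2FC of 1.58 in the sort, where *Cd9*, a tetraspanin of vesicle membranes, rose by 1.40. *Chka*, which uses choline to make phosphocholine inside the cell, fell from 48.7 ± 2.33 to 23.2 ± 0.0158 CPM, at a Log2FC of -1.04. The annexins of the list, *Anxa2*, *Anxa5* and *Anxa6*, stood between -0.50 and 0.54 on day 14.

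Of 12 genes of pyrophosphate and nucleotide turnover 9 were tested over the days, and 2 rose and 3 fell on day 14 (median Log2FC -0.49), while 1 of 8 tested rose and 1 fell in the sort (median 0.12). *Panx3*, a channel that releases ATP, rose from 75.0 ± 4.64 to 653 ± 6.81 CPM on day 14 (SD, n = 2), which is a Log2FC of 3.11, and by 1.39 in CD61 high cells. *Ppa1*, the cytosolic pyrophosphatase, fell from 135 ± 2.76 to 44.8 ± 0.759 CPM, at a Log2FC of -1.57, and was at -1.23 in CD61 high cells, also called lower. *Enpp3*, a relative of *Enpp1*, fell from 3.20 to 0.375 CPM, at a Log2FC of -1.61, *Lhpp*, which also splits pyrophosphate, fell with -1.41, and *Enpp5* rose by 1.48.

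Of 15 genes of phosphate transport and inositol pyrophosphates, the molecules that cells use to sense phosphate and that bind XPR1, 11 were tested, and 2 rose and 1 fell on day 14 (median -0.17) and 0 were called in the sort (median 0.06). edgeR gave 2 of these 11 higher and 2 lower at an adjusted p below 0.01 alone in the sort, beside 19.4% and 16% of all genes. *Ip6k3*, an inositol hexakisphosphate kinase, rose from 0.989 ± 0.0209 to 5.21 ± 0.490 CPM and *Slc37a4*, the glucose 6-phosphate carrier, from 9.53 ± 1.29 to 23.3 ± 1.07 CPM (SD, n = 2). *Nudt4*, which breaks inositol pyrophosphates down, fell from 241 ± 1.42 to 111 ± 1.67 CPM. *Kidins220*, a partner of XPR1, was at -0.17 on day 14 and 0.05 in the sort.

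Of 16 genes of FGF23 control, processing and signalling, 11 were tested, and 5 rose and 2 fell on day 14 (median 0.24), while 4 rose in the sort (median 0.87). *Dmp1*, the matrix protein whose loss raises FGF23, rose by a Log2FC of 4.83 on day 14 and 4.29 in the sort, the largest of the list in both. *Vdr*, the vitamin D receptor, rose from 48.5 ± 4.34 to 136 ± 10.6 TMM-normalized CPM in the sort (SD, n = 3), at a Log2FC of 1.49, and by 1.29 on day 14. *Egr1*, an early gene downstream of FGF receptors, rose by 2.88 on day 14 and was at 0.38 in the sort (edgeR adjusted p = 0.011). *Fam20a*, the pseudokinase partner of FAM20C, fell from 101 ± 2.34 to 27.8 ± 2.49 CPM on day 14 (SD, n = 2), at a Log2FC of -1.83, and was at 0.50 in the sort, and *Cyp27b1*, which activates vitamin D, fell from 3.47 to 1.08 CPM. *Galnt3*, which shields FGF23 from cleavage, rose by 1.17 on day 14, and *Furin*, which cleaves it, was at -0.44.

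Of 8 matrix proteins that bind mineral, 6 were tested, and 3 rose on day 14 (median Log2FC 2.11) and 6 in the sort (median 1.70). *Ibsp*, bone sialoprotein, rose from 221 ± 4.77 to 4274 ± 31.7 CPM (SD, n = 2), at a Log2FC of 4.27, and by 1.24 in the sort. *Bglap* and *Bglap2*, the osteocalcin genes, rose by 2.45 and 2.44 in the sort and by 3.80 and 3.36 on day 14. They are near-identical copies, so how reads were split between them is uncertain. *Mgp*, the matrix Gla protein that blocks mineral growth, was at -0.04 on day 14 (limma adjusted p = 0.41) and rose by 1.61 in the sort.

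Genes with the most similar time course were found by the root mean square difference in log2(CPM + 1) change from day 1 over the 6 libraries of days 7, 10 and 14, for the 6 genes called against day 1. They were *Pygl* (0.33) and *Tgfa* (0.43) for *Phex*, *Mef2c* (0.07) and *Susd1* (0.12) for *Alpl*, *Car3* (0.20) and *Cdkn1a* (0.22) for *Phospho1*, *Dab2ip* (0.05) and *Ptprg* (0.10) for *Ank*, *Rps28* (0.12) and *Gm6969* (0.13) for *Enpp1*, and *Dnajb9* (0.12) and *Herpud1* (0.12) for *Fam20c*. *Mef2c*, a transcription factor gene, went from 183 to 803, 689 and 775 CPM over the 4 days. *Dab2ip* went from 119 to 200, 342 and 177 CPM, also highest on day 10. *Herpud1* and *Dnajb9*, of the endoplasmic reticulum stress response, went from 96.3 to 239, 283 and 199 and from 14.0 to 31.6, 42.1 and 30.8 CPM. *Susd1* went from 0.981 to 7.53, 7.30 and 6.47 CPM and *Pygl* from 0.292 to 22.3, 11.1 and 69.5 CPM. Adding 1 to the CPM shrinks the change of genes that start this low, so a near match on this scale does not mean an equal fold. A day 10 maximum was common, since 27.4% of the 12725 tested genes had their highest mean on day 10, beside 35.6% on day 1, 10.7% on day 7 and 26.3% on day 14, and the endothelial list carried by *Vwf* also peaked there.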

How the data were processed

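The 10 genes, the related lists and the rule for the genes named were chosen with earlier results of these data known. The rule names all 10 genes, *Itgb3*, from each of 5 lists the 2 largest called increases and decreases in day 14 against day 1 and in the sort, and the 2 nearest time courses. Other list genes were named after their values were seen.

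For the time course, the authors used STAR for mapping and HTSeq for counting, and deposited CPM, which are scaled to library totals. The build and annotation of this table are not given in the sources used here. Every CPM value lay within 0.01 of a whole number of reads, so reads per library were recovered (100% of 313432 values). Lengths for CPM per kilobase are the deposited gene lengths of the table. For the sort, the authors ran Salmon on GRCm39 (tools and build from the submitters' processing notes) and deposited estimated counts and TPM per transcript. Of 116747 transcripts 115556 were found in GENCODE M39, with 99.3 to 99.4% of the counts. Estimated counts were summed per gene and rounded. The deposited TPM were summed per gene and used for levels and transcript shares. No table column of samples was left unused (0).

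Log2(CPM + 1) of genes above 1 CPM in at least 1 library was fitted with limma 3.58.1 (trend) over all 8 libraries. The pseudocount of 1 understates folds of low genes. Counts were fitted with edgeR 4.0.16 (TMM factors over all genes, at least 5 normalized counts in all 6 libraries). R 4.3.3, Python 3.11.15 and DESeq2 1.42.0 were used. The code was tested on simulated data. Replicates differed by more than counting noise (chi-square per gene 2.28 to 19.9) and were kept apart. The p-values measure the spread between these libraries, with each gene's variance drawn by limma and edgeR toward that of other genes. With 2 libraries a day, the very small p-values of the days rest on that shared spread as well as on the gene's own libraries. Alternatives were other filters, pseudocounts, scalings, tools, a length offset, a replicate block and each library left out. The tables were normalized separately and tested apart.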

Additional observations from a re-analysis of the deposited data

How the results depend on the processing

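Over 55 results and 815 alternative values, 805 kept their direction and their side of the calling threshold. The counts of the 9 genes called were kept in the other fits, with these exceptions. Scaled by library size alone, 1 of the 9 was called lower in the sort (*Slc20a1*, Log2FC -1.13) and *Ank* was lost (0.88). With each library left out in turn, 0 to 1 of the 9 were called lower at day 14 against day 10 (*Ank*, -1.05 without day 10 replicate 1). *Xpr1*, which was never called, changed sign at day 10 against day 7 with edgeR on the recovered reads (-0.021) and with TMM scaling of the recovered reads (-0.0199). With libraries left out it ranged from -0.036 to 0.134 at day 10 against day 7, from -0.081 to 0.088 at day 14 against day 10 and from -0.16 to 0.0067 in the sort. The cause was not tested.

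At an adjusted p below 0.01 alone, the small differences of *Enpp1*, *Slc20a1*, *Xpr1*, *Phospho1*, *Slc20a2* and *Phex* crossed that line in 1 or more alternatives. Counts over all genes moved by over 1.5 times in 4 comparisons. At day 7 against day 1, edgeR on the recovered reads called 876 higher (571 in limma). At day 10 against day 7 it called 334 higher and 216 lower, a pseudocount of 0.1 gave 377 and 175, and limma 182 and 100. At day 14 against day 10 these were 504 and 227, 425 and 246, and 266 and 111. In the sort, library size alone gave 314 and 981 (585 and 528 with TMM).

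Both CD61 gates were sorted from the same 3 groups of cells, but whether equal replicate numbers mark the same group is not given in the sources used here, so pairs could not be assigned. The deviations of same-numbered libraries correlated at -0.03 to 0.06 over the days and at -0.32, 0.22 and -0.06 in the sort, where 1 of 3 CD61 low libraries correlated best with its own number. With the replicate number as a block, 4, 6, 3, 0 and 1 of the 9 genes were called higher in the 5 day comparisons and 4 in the sort, and 574 genes higher and 509 lower in the sort. Depth limits *Fgf23* and, with at most 189 estimated counts per sorted library, *Enpp1*.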
